A study of Mus musculus with 9 samples.

Results

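A set of 10 heart muscle genes, 9 for parts of the contractile apparatus and Nkx2-5 for a transcription factor, were followed in reporter-sorted cells from differentiating mouse embryonic stem cells. They are Tnnc1, Tnnt2, Tnni1, Tnni3, Actc1, Myl4, Myl7, Myh6, Myh7 and Nkx2-5, 10 of 22180 genes on the array. The genes were chosen by name with earlier results of these arrays known, and each is read from the probe set that carries its symbol alone. Each of the 10 has 1 such probe set, so the rule of taking the brightest did not have to choose. Because results were known when they were listed, their levels and differences between days are given as a description, with standard errors and without p-values. The stem cells carry a transgene in which the promoter of Afp, the alpha-fetoprotein gene, drives green fluorescent protein. They were grown as embryoid bodies begun from 300 cells each, attached to gelatin in serum-containing medium with transferrin and ascorbic acid. Cells scored as reporter-positive in a flow cytometer were collected at day 4, day 7 or day 21, with 3 arrays for each day and no reporter-negative or untransgenic group among the 9 arrays. Each array received 500 pg of total RNA, amplified with a kit for very small inputs. All days share the stem cells, the transgene and the medium. Whether the 3 arrays of a day stand for different cultures is not in the labels, and p-values then measure only the spread between these arrays, which may be technical. A sorted bulk sample does not tell fewer cells of a type apart from less RNA per cell.

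Heart muscle contracts when calcium binds the troponin complex on the thin filament, which is built of actin, tropomyosin and troponin. Troponin C (Tnnc1) binds calcium, troponin I (Tnni1 in fetal heart and slow muscle, Tnni3 in adult heart) inhibits, and troponin T (Tnnt2) ties the complex to tropomyosin. Release of the inhibition lets the myosin heavy chains (Myh6 and Myh7), with their light chains (Myl4 and Myl7 in the atria and the embryonic heart), pull on cardiac actin (Actc1). Nkx2-5 is an early transcription factor of the heart field. Several of the 10 are also made outside the heart: Tnnc1, Tnni1 and Myh7 serve slow skeletal muscle, and Nkx2-5 is used in spleen and pyloric stomach.

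The bases before the transcription start are shown for Tnnc1, Tnnt2, Actc1 and Myl7, which between them hold the widest changes and both patterns described below. They are the 250 bases upstream of the most upstream RefSeq start in GRCm38.p6, read 5′ to 3′ on the strand of the gene. Capitals mark letters that match a GATA site, an MCAT element, a CArG box, a MEF2 site, an NKX2-5 site or TATAAA.
Tnnc1, chr14:31208062-31208311, plus strand: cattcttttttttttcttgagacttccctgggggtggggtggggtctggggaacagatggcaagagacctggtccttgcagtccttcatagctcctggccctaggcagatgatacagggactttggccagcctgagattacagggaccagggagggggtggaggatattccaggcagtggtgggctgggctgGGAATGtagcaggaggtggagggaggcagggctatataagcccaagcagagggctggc
Tnnt2, chr1:135836084-135836333, plus strand: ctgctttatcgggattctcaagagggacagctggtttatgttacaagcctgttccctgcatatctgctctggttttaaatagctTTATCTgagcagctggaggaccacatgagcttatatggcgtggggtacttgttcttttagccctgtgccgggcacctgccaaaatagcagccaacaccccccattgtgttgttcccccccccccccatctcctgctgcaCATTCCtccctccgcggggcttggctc
Actc1, chr2:114052876-114053125, minus strand: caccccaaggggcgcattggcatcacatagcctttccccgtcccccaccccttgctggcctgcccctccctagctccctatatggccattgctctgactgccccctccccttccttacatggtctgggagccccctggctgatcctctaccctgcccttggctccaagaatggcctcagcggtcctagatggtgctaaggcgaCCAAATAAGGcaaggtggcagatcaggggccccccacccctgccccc
Myl7, chr11:5898783-5899032, minus strand: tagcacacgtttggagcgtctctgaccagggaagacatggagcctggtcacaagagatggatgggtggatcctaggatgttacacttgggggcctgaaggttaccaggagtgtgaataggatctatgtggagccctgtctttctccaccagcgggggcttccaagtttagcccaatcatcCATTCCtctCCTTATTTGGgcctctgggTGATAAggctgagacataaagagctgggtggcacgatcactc

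All 10 genes matched the RefSeq promoter table, and the same motifs were searched in 27025 promoters of the same length, on both strands. The MCAT element (CATTCC), which TEAD factors bind in muscle promoters, was present in 5 of the 10 (Tnnc1, Tnnt2, Myl7, Myh6 and Myh7) and in 12.6% of all promoters. The CArG box, the motif of serum response factor, was present in Actc1 and Myl7 and in 1.4% of all promoters. A GATA site (AGATAA or AGATAG, as well as TGATAA or TGATAG) was present in Tnnt2, Myl7 and Myh6, and in 27.1% of all. The NKX2-5 site (TNAAGTG) was found in Myh7, against 2708 of the 27025, and an E box (CANNTG) in 8 of the 10, against 66.1%. TATAAA, a MEF2 site, a FOXA site (TGTTTAC or TGTTTGC) and a GC box (GGGCGG) were found in 0 of the 10, against 13.0%, 3.0%, 7.2% and 33.0% of all promoters. None of the matches in the 10 overlapped a match of another motif. In Myl7 the MCAT element (bases -70 to -65), the CArG box (-61 to -52) and the GATA site (-42 to -37) follow each other closely, while Tnnc1 holds an MCAT element at -58 to -53. These are matches of letters within a short window, counted from the start site.

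Across the 3 days the largest rises among the 10 were those of troponin genes, and the myosin heavy chains stayed near the background of the array. Tnnc1 was far higher at day 7 than at day 4 or day 21. Tnnt2 was higher from day 7 on, Tnni1 was higher on both later days, and Myl7 was lowest at day 21. A gene is called here where limma's two-sided test gives an adjusted p under 0.05 over all 22180 genes. Between days 4 and 7, 4 of the 10 were called higher (Tnnc1, Tnnt2, Tnni1 and Actc1) and 0 lower, where 6.98% of all genes were called higher and 6.47% lower (13.4% in all). At an unadjusted p under 0.05, 1 of the 10 was lower. Between days 7 and 21, 4 were called lower (Tnnc1, Myl7, Actc1 and Myl4) and 0 higher, against 10.7% and 12.4% of all genes (23.0% in all), and 0 were higher at an unadjusted p under 0.05. Between days 4 and 21, 3 were called higher (Tnnt2, Tnnc1 and Tnni1) and 1 lower (Myl7), against 15.0% and 14.1% (29.1% in all). The arrays of days 4 and 7 did not overlap for 7 of the 10 (6 higher and 1 lower at day 7), as for 29.9% of all genes (14.0% and 15.9%). Days 7 and 21 did not overlap for 5, all lower at day 21, as for 35.5% of all genes (17.1% higher, 18.4% lower). Days 4 and 21 did not overlap for 7 (3 higher and 4 lower), as for 40.4% (19.4% and 21.0%). The median log2 change of the 10 was 0.64, -0.31 and 0.31 in these comparisons, beside -0.01, -0.03 and -0.03 over all genes. The 10 were listed with such results known, so these counts describe them and are no test. Both intervals share the day 7 arrays, and the third comparison shares arrays with each. Among the 10, 7 had their highest day mean at day 7, as did 30.6% of all genes, and 4 (Tnni3, Myh6, Myh7 and Nkx2-5) were called in none of the comparisons, as were 63.8% of all genes.

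**Figure D1:**
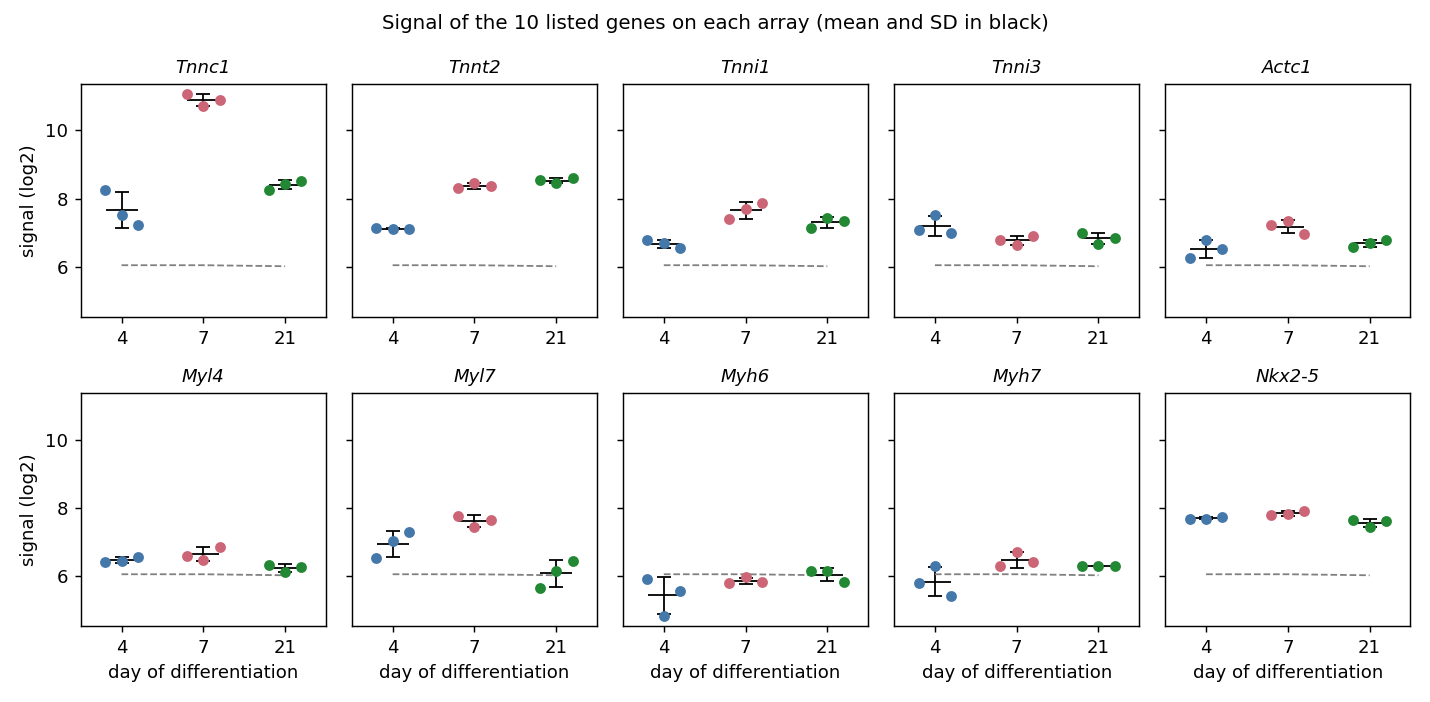
Log2 signal of the 10 genes on each array, by day of differentiation; coloured points are arrays, black bars the mean and SD of 3 arrays, and the dashed line the 95th percentile of olfactory receptor genes. The mean of Tnnc1 reaches 10.89 at day 7, beside 7.68 and 8.41 on the other days, whereas the day means of Myh6 and Myh7 run close to the dashed line.

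To judge which of these signals stand above background, they were set against 1105 olfactory receptor genes, of which few cells outside the nose make transcripts. On single arrays the 95th percentile of this group was 5.91 to 6.19, and 53.7% to 56.3% of all genes had a day mean above it. By that reference 8 of the 10 were above background at day 4, 9 at day 7 and 10 at day 21. Against the 99th percentile (6.68 to 7.02 on the arrays) the counts were 5, 6 and 4, with 39.1% to 40.8% of all genes above it. Tnnc1, Tnnt2 and Nkx2-5 passed the higher mark on every day, whereas Myl4, Myh6 and Myh7 passed it on none. Differences of the latter 3 therefore lie in a range where signal and background are hard to separate.

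Tnnc1 (probe set 17298379) had signals of 8.25, 7.53 and 7.24 on the day 4 arrays, 11.06, 10.72 and 10.89 at day 7, and 8.27, 8.44 and 8.53 at day 21, in log2 units as for all signals here. The day 7 arrays stand well above all others, and the lowest day 21 array lies just above the highest day 4 array. Its mean rose 9.26-fold, from 7.68 ± 0.52 to 10.89 ± 0.17 (SD, n = 3 arrays), a log2 change of 3.21 ± 0.22 (SE). By day 21 it had fallen to 8.41 ± 0.13, a change of -2.48 ± 0.22. In size these are number 24 of 22180 among rises from day 4 to day 7, and number 43 among falls from day 7 to day 21. Day 21 was above day 4 by 0.73 ± 0.22, a call lost without day 4 replicate 2 (0.66), day 4 replicate 3 (0.52), day 21 replicate 2 (0.72) or day 21 replicate 3 (0.68), and in a fit on these 2 days alone (0.73). The day 4 array with the highest Tnnc1, replicate 1, also had the highest mean of 7 smooth muscle markers of its day (7.99, beside 7.43 and 7.58), and the part of this in the result was not tested. Without that array the rise to day 7 was the largest of all settings, 3.50.

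Tnnt2 (17217651), the troponin T of heart muscle, followed another course, since it did not come back down. Its signals were 7.14, 7.13 and 7.11 at day 4, 8.31, 8.47 and 8.37 at day 7, and 8.54, 8.46 and 8.60 at day 21. The day 4 arrays lie below all others, and the arrays of the later days overlap. The mean rose 2.39-fold from 7.13 ± 0.01 to 8.38 ± 0.08, a log2 change of 1.26 ± 0.09, and was 8.53 ± 0.07 at day 21. The difference between days 7 and 21, 0.15 ± 0.09, was not called, while day 21 exceeded day 4 by 1.40 ± 0.09. Both calls of Tnnt2 held in all 16 other settings.

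Tnni1 (17217625), the troponin I of fetal heart and slow muscle, read 6.79, 6.72 and 6.56 at day 4, 7.40, 7.71 and 7.88 at day 7, and 7.14, 7.45 and 7.36 at day 21. All 6 later arrays lie above the 3 day 4 arrays, and days 7 and 21 overlap. It rose by 0.97 ± 0.14 to day 7 and lay 0.62 ± 0.14 above day 4 at day 21. The step between days 7 and 21, -0.35 ± 0.14, was not called, except without day 7 replicate 1 (-0.48). Tnni3 (17485789), the adult form, read 7.08, 7.54 and 6.99 at day 4, 6.81, 6.65 and 6.91 at day 7, and 6.99, 6.67 and 6.87 at day 21. Its day 4 arrays lie at or above all later ones, yet no difference was called in any of the 16 other settings, with -0.42 ± 0.15 to day 7 and 0.05 ± 0.15 from there to day 21. The fetal form thus has a positive change to day 7 and the adult form a negative one, and the difference between the changes was not tested.

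Actc1 (17389510), the actin of the heart, read 6.27, 6.80 and 6.54 at day 4, 7.25, 7.35 and 6.97 at day 7, and 6.60, 6.71 and 6.80 at day 21. The day 7 arrays lie above all others, and days 4 and 21 overlap. It rose by 0.65 ± 0.15 and then fell by 0.49 on the log2 scale (SE 0.15), so that Tnnc1 and Actc1 were called both higher at day 7 and lower after it, as were 2.66% of all genes. These calls of Actc1 are near the threshold. The rise was no longer called without day 4 replicate 1 (0.51), day 7 replicate 1 (0.62) or day 7 replicate 2 (0.57). The fall was no longer called without day 4 replicate 3 (-0.49), day 7 replicate 1 (-0.46), day 7 replicate 2 (-0.41), day 21 replicate 1 (-0.43), day 21 replicate 2 (-0.49) or day 21 replicate 3 (-0.53), or with arrays centred on the olfactory receptor median (-0.49).

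Of the light chains, Myl7 (17260236), the atrial regulatory chain, read 6.54, 7.02 and 7.30 at day 4, 7.77, 7.43 and 7.65 at day 7, and 5.67, 6.15 and 6.44 at day 21. The 3 days do not overlap, with day 7 highest and day 21 lowest. Its difference of 0.66 ± 0.22 between days 4 and 7 was not called. By day 21 it had fallen 2.89-fold, a log2 change of -1.53 ± 0.22, to 6.09 ± 0.39, a mean only 0.06 above the background reference. Against day 4 it was lower by -0.87 ± 0.22, which was not called without day 4 replicate 3 (-0.70). Myl4 (17257221), the atrial essential chain, read 6.42, 6.45 and 6.56 at day 4, 6.60, 6.47 and 6.87 at day 7, and 6.32, 6.12 and 6.28 at day 21. All of its day means lie within 0.41 of each other. The fall after day 7, -0.41 ± 0.12, was called, but not without day 7 replicate 1 (-0.43), day 7 replicate 3 (-0.30) or day 21 replicate 2 (-0.35), and not in a fit on these 2 days alone (-0.41).

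The myosin heavy chain genes lie side by side on mouse chromosome 14 and are close in sequence, so that probes may not fully separate them. Myh6 (17306532) read 5.91, 4.85 and 5.58 at day 4, 5.81, 5.97 and 5.84 at day 7, and 6.16, 6.15 and 5.82 at day 21. It was above the background of its array on 0 of 3, 0 of 3 and 2 of 3 arrays of these days, and the days overlap. Its differences, 0.43 ± 0.23 to day 7 and 0.17 ± 0.23 from there to day 21, were not called. Day 21 against day 4 (0.60 ± 0.23) was called only without day 4 replicate 1 (0.83). Myh7 (17306577) read 5.81, 6.29 and 5.43 at day 4, 6.29, 6.72 and 6.42 at day 7, and 6.29 on each of the 3 day 21 arrays. Its deposited value is identical on 5 of the 9 arrays, among them all 3 of day 21, so an SD of 0.00 there is no measure of precision. Exact ties between arrays occur for 38.9% of all genes. The change of Myh7 to day 7, 0.63 ± 0.19, was not called in the main fit and was called in 5 of 16 other settings, among them without day 4 replicate 2 (0.86), which also brought day 21 against day 4 to a call (0.67, beside 0.45 ± 0.19 with all arrays).

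Nkx2-5 (17342656), the only transcription factor among the 10, varied least. It read 7.69, 7.67 and 7.73 at day 4, 7.79, 7.82 and 7.92 at day 7, and 7.65, 7.44 and 7.61 at day 21. The 3 days do not overlap, with day 7 highest, but their means span only 0.27. The changes of 0.15 ± 0.10, -0.27 ± 0.10 and -0.13 ± 0.10 (day 21 against day 4) were not called. The second was called after repeated quantile normalization (-0.33) and with dim genes left out (-0.27).

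**Figure D2:**
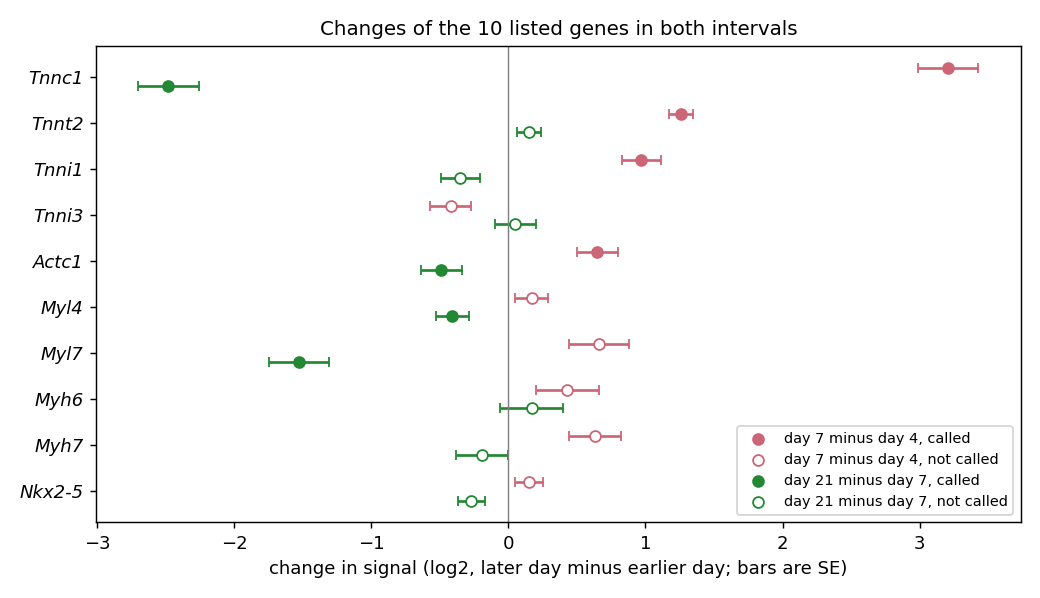
Log2 changes of the 10 genes from day 4 to day 7 (red) and from day 7 to day 21 (green); bars are SE from the model, filled points are called and open points are not. Tnnc1 has the largest change in both intervals (3.21 and -2.48), while Tnnt2 has 1.26 in the first and 0.15, not called, in the second.

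Within a day the 10 genes did not rank the arrays alike. At day 7 replicate 3 was the highest array for 4 genes, replicate 2 for 4 and replicate 1 for 2. At day 21 replicate 1 was highest for Tnni3, Myl4, Myh6 and Nkx2-5, and lowest for Tnnc1, Tnni1, Actc1 and Myl7. Tnnt2 was intermediate there, and Myh7 was equal on all 3 arrays. No single array of a day was therefore high for all 10.

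The remaining sarcomere was then examined with a list of 36 other genes of thick and thin filaments, the Z disc and their partners, of which 35 were measured. This list and those below were also chosen with earlier results of these arrays known. The p-values printed for their genes are therefore descriptive. Between days 4 and 7, 2 rose (Ttn and Myl3; 1 without day 4 replicate 3 or day 7 replicate 3), 2 fell and 31 did not pass, with a median log2 change of 0.03. Between days 7 and 21, 5 rose (3 without day 7 replicate 1) and 1 fell (2 without day 7 replicate 1 or day 21 replicate 3), with a median of -0.04. Over days 4 to 21, 5 rose (3 without day 21 replicate 2) and 2 fell, with a median of 0.01. The count above background was 12 of 35 at day 4, 14 at day 7 and 15 at day 21, beside 53.7%, 54.1% and 56.3% of all genes. Measured against the shares called of all genes given above, the list was not called more often in the first interval (4 of 35, where 13.4% of all genes were called). Between days 7 and 21, 23.0% of all genes were called, and over days 4 to 21, 29.1% were.

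Ttn, the giant spring protein of the sarcomere, read 5.65, 5.44 and 5.66 at day 4, 6.28, 6.71 and 6.26 at day 7, and 6.06 on all 3 day 21 arrays, where the deposited values are identical. It rose by 0.84 ± 0.13 to day 7 (limma adjusted p = 0.00152) from a mean below background. Myl3, the ventricular essential light chain, rose by 0.60 ± 0.14 (limma adjusted p = 0.0169), a call lost without day 4 replicate 3 (0.50), day 7 replicate 1 (0.56) or day 7 replicate 3 (0.59). Tpm1, a tropomyosin made in many cell types, fell by 0.80 on the log2 scale to day 7 (limma adjusted p = 2.91e-04) and rose by 0.53 ± 0.10 by day 21. Pdlim3, a LIM protein of the Z disc, fell by 1.34 to day 7. By day 21 the largest rises were those of Cryab, a small heat shock protein (1.44 ± 0.33 over day 7), and Smpx, a small muscle protein (1.06 ± 0.16, with its day 21 mean still below background). Of the 10 cardiomyocyte markers, which include Tnnt2, Myh6 and Myh7, 2 were above background at day 4, 5 at day 7 and 6 at day 21. The shares of all genes above it were 53.7%, 54.1% and 56.3%. Tnnt2, Ttn, Myl3 and Ryr2 were called higher at day 7 than at day 4, as were 6.98% of all genes. Of these 10 markers, 4 had day means below background throughout. They were Actn2, the Z-disc actinin, Myl2, the ventricular regulatory light chain, Mybpc3, cardiac myosin-binding protein C, and Nppa, atrial natriuretic peptide. Their day means ranged from 5.41 to 5.94. The highest single reading among them was 6.07, for Mybpc3 in day 21 replicate 1.

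**Figure D3:**
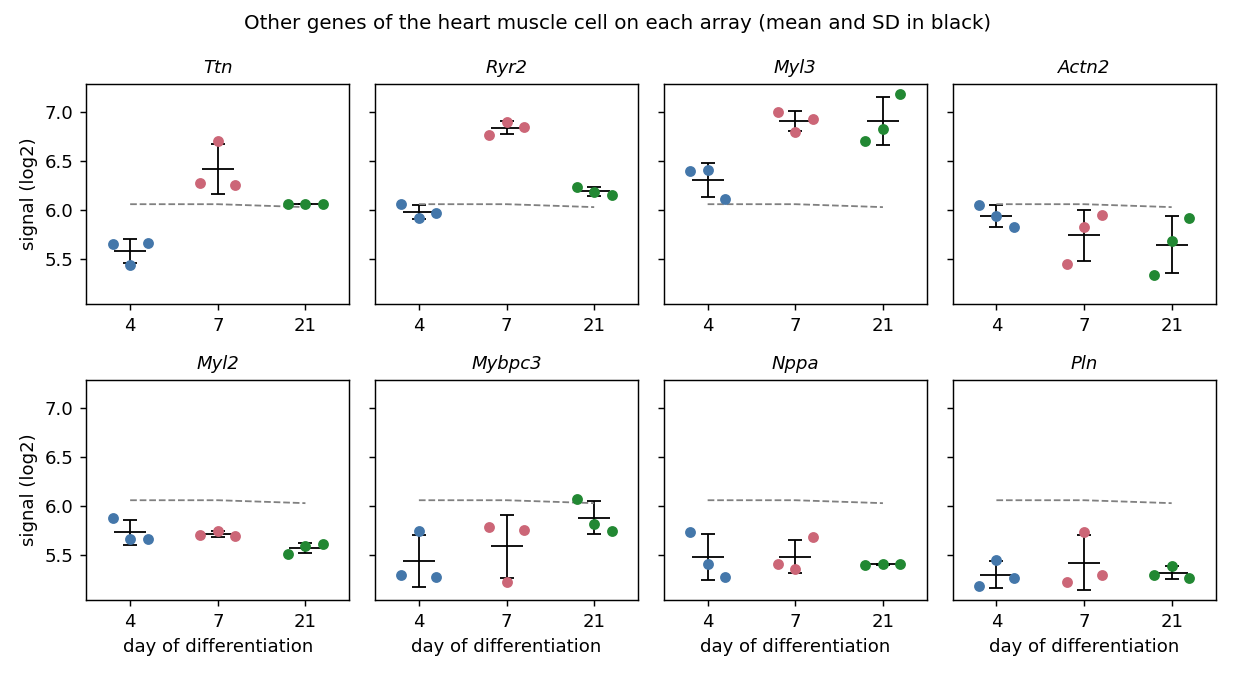
Log2 signal of 8 further heart muscle genes on each array by day; points are arrays, black bars the mean and SD, and the dashed line the 95th percentile of olfactory receptor genes. Ttn, Ryr2 and Myl3 lie above the line at day 7, while Actn2, Myl2, Mybpc3, Nppa and Pln have day means below it throughout.

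Calcium handling and conduction genes were called in both directions. Of 26 measured, 2 rose between days 4 and 7 (Ryr2 and Cacnb2, 1 with the mean of all probe sets) and 1 fell (0 without any 1 of the day 4 arrays or without day 7 replicate 1 or 3, but 3 without day 21 replicate 1 and 2 without day 21 replicate 2 or 3). After day 7, 4 rose and 5 fell by day 21, and over the whole course 3 rose (1 without day 4 replicate 2) and 6 fell. Beside these counts, 13.4%, 23.0% and 29.1% of all genes were called in the same comparisons. The medians were 0.02, -0.09 and 0.01. Ryr2, the calcium release channel of heart muscle, read 6.06, 5.92 and 5.97 at day 4, 6.77, 6.90 and 6.85 at day 7, and 6.24, 6.18 and 6.15 at day 21. It was highest at day 7, as Tnnc1 was, with changes of 0.86 ± 0.09 (limma adjusted p = 1.05e-04) and -0.65 ± 0.09 (4.12e-04). Its day 4 mean (5.98) was below background, and its day 21 mean (6.19) was little above it. Cacna1g, a T-type calcium channel, rose by 1.48 ± 0.22 after day 7 from a mean below background, and the potassium channel genes Kcnj3 and Kcnj5 fell by 1.62 and 1.19 to means below background, so the sizes of these changes are set in part by the background level. Pln (phospholamban) lay between 5.30 and 5.42 on all days, below background, and Atp2a2, the calcium pump it inhibits and one that most cells use, lay between 10.95 and 11.27.

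Among 30 measured transcription factors of heart development, 9 rose and 3 fell between days 4 and 7 (1 fell without day 4 replicate 1, day 4 replicate 2 or day 7 replicate 1), with a median of 0.11. Between days 7 and 21, 10 fell and 1 rose (Zfpm2, from and to levels below background, whose call was lost without any array except day 7 replicate 2 or day 21 replicate 3), with a median of -0.23. Over days 4 to 21, 10 fell and 3 rose (1 without day 21 replicate 1). In these comparisons 13.4%, 23.0% and 29.1% of all genes were called. Many of these factors also act outside the heart, Gata4 among them, which serves visceral endoderm. Gata4 rose by 1.64 ± 0.13 (limma adjusted p = 1.23e-05) and then fell by 1.13. Tbx3 rose by 1.56 ± 0.13 and fell by 2.74, and Tbx20 rose by 0.89 ± 0.16 and fell by 2.43 to a mean below background. Myocd (myocardin), a co-activator of serum response factor in heart and smooth muscle, read 6.98, 7.01 and 6.84 at day 4, 7.93, 8.03 and 8.02 at day 7, and 6.95, 6.76 and 6.83 at day 21. It rose by 1.05 ± 0.10 (limma adjusted p = 4.04e-05) and fell by 1.15 (1.28e-05).

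Mef2c rose by 0.61 ± 0.14 (limma adjusted p = 0.0140) from below background, which was not called without day 4 replicate 1 (0.52), day 4 replicate 3 (0.58), day 7 replicate 2 (0.58) or day 7 replicate 3 (0.57), or with the mean of its probe sets (0.31). Hand2 rose by 0.42 ± 0.12 to day 7 (limma adjusted p = 0.0362). Its call was lost without any 1 of the day 4 arrays, day 7 replicate 1 or 2, or day 21 replicate 2. It was also lost with the replicate block and with arrays centred on the olfactory receptor median. Between days 7 and 21 Hand2 (-0.29 ± 0.12) was called only after repeated quantile normalization (-0.37). Hand1 (0.11 ± 0.17), Isl1 (-0.18 ± 0.09), Tbx5 (0.21 ± 0.15) and Mesp1 (-0.57 ± 0.20) did not pass between days 4 and 7. Hand1 and Isl1 then fell by 0.96 and 0.68 between days 7 and 21. Hey1, a Notch target, fell by 1.26 in that interval, while Foxc1, a factor of mesoderm, fell by 1.95 in the first interval.

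In the list of secreted and metabolic genes of heart, 3 of 22 rose and 1 fell between days 4 and 7 (1 rose without day 4 replicate 2, day 4 replicate 3, day 7 replicate 2 or day 7 replicate 3), and 7 rose and 2 fell between days 7 and 21. Over the whole course 6 rose and 1 fell (2 without day 7 replicate 2). The shares of all genes called were 13.4%, 23.0% and 29.1%. The rises after day 7 included Sorbs2, a cytoskeletal adaptor, at 3.40 ± 0.18 from a mean below background (limma adjusted p = 4.36e-07), Ankrd1, a stress-responsive ankyrin repeat protein of muscle, at 3.28 ± 0.13 (6.39e-08), and Lpl, lipoprotein lipase, at 1.56 ± 0.30 (0.00341). These genes were thus highest at day 21, when Tnnc1 and Myl7 had fallen. Nppb, brain natriuretic peptide, rose by 0.97 ± 0.17 after day 7, from 6.26 ± 0.19 to 7.23 ± 0.30. Eno3, the enolase of muscle, had changes like those of Tnnc1 in sign, 0.49 ± 0.09 and then -0.94 ± 0.09.

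Skeletal muscle genes gave 2 rises (1 without day 4 replicate 1 or day 7 replicate 1) and 0 falls among 29 between days 4 and 7. In that interval 6.98% of all genes were called higher and 6.47% lower. At an unadjusted p under 0.05 in limma, 2 of the 29 were lower. Both that rose were troponin T genes. Tnnt1, the slow form, read 6.55, 6.68 and 6.67 at day 4, 7.19, 7.43 and 7.35 at day 7, and 6.28, 6.55 and 6.64 at day 21. It rose by 0.69 ± 0.12 (limma adjusted p = 0.00262) and fell by 0.83 (4.58e-04). Tnnt3, the fast form, rose by 0.49 ± 0.11 (limma adjusted p = 0.0151), a call lost without day 4 replicate 1 (0.40) or day 7 replicate 1 (0.47), and fell by 0.66. Of the 8 troponin genes in all, which include 4 of the 10, 5 were called higher at day 7 than at day 4 (6.98% of all genes were), 0 lower (1 lower at an unadjusted p under 0.05 in limma). Of 8 sarcomeric myosin heavy chain genes 0 were called in either direction between days 4 and 7 (1 higher and 2 lower at an unadjusted p under 0.05), and 1, Myh2, was lower at day 21 than at day 4. The other troponins, Tnnc2 and Tnni2 of fast muscle, had changes of 0.12 ± 0.11 and 0.06 ± 0.12. This grouping into families was made after the values were seen. Myod1, the regulator of the skeletal muscle lineage, lay at 6.06, 6.10 and 5.77, with changes that did not pass. Between days 7 and 21, 4 of the 29 skeletal muscle genes fell and 0 rose, against 10.7% and 12.4% of all genes. Over days 4 to 21, 2 fell and 0 rose, against 14.1% and 15.0%. At an unadjusted p under 0.05 in limma, 0 and 0 were higher in these comparisons. The medians were 0.04, -0.13 and -0.06.

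Smooth muscle genes did not follow the course of Tnnc1. Of 18, 4 fell and 0 rose between days 4 and 7 (2 fell without day 7 replicate 1 or day 7 replicate 3), with a median of -0.16 and 0 higher at an unadjusted p under 0.05 in limma. Between days 7 and 21, 6 rose and 1 fell (2 without day 4 replicate 3), with a median of 0.23, and over the whole course 4 rose and 5 fell. Beside these counts, 13.4%, 23.0% and 29.1% of all genes were called. Rgs5, a pericyte gene, fell by 1.33 to day 7. Mcam, Myl9 (smooth muscle light chain) and Actg2 (enteric actin) rose after day 7 by 1.36 ± 0.10, 1.15 ± 0.11 and 1.06 ± 0.19, Actg2 from a mean below background. Acta2, smooth muscle actin, had changes of 0.15 ± 0.24 and 0.41 ± 0.24 that did not pass. All 20 contractile genes of non-muscle cells were above background on every day. In the first interval, where 13.4% of all genes were called, 2 of them rose and 2 fell. Leaving out single arrays gave 0 to 2 rises and 1 to 2 falls. Myh14, a non-muscle myosin, rose by 1.37 ± 0.11 after day 7.

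Markers of other cells also changed between the days, in differing directions, and their part in the results was not tested. Of 11 markers of visceral endoderm or liver, 9 rose between days 4 and 7. Between days 7 and 21, 8 of them were called lower and 2 higher, Alb (6.19) and Afp (2.47). Their mean log2 signal was 6.31 to 6.51 over the day 4 arrays, 9.38 to 9.47 at day 7 and 9.37 to 9.42 at day 21. The similar means of the later days thus hide changes in both directions. Of all genes, 6.98% were called higher and 6.47% lower in the first interval, and 12.4% and 10.7% in the second. Afp, whose promoter drives the reporter, was below background at day 4 (5.72 ± 0.18), and reached 10.60 ± 0.07 and 13.07 ± 0.11. The 10 cardiomyocyte markers had means of 5.79 to 5.99, 6.28 to 6.38 and 6.23 to 6.28 on the arrays of the 3 days. With the listed genes Tnnt2, Myh6 and Myh7 left out, 7 remained, at 5.68 to 5.87, 6.06 to 6.16, and 5.90 to 6.01, of which 3 rose between days 4 and 7 and 0 fell. Stromal markers went from 6.25 to 6.41 at day 7 to 8.96 to 9.87 at day 21, when 8 of 9 rose. Early mesoderm markers went from 8.23 to 8.53 at day 4 to 6.72 to 7.07 at day 7. Of 9 endothelial markers 2 rose and 1 fell between days 4 and 7, with Pecam1 at 0.59 ± 0.11, and 5 (Tek, Tie1, Emcn, Erg and Cldn5) were below background on every day.

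For the listed genes whose day means span at least 1 log2 unit, the genes of most similar course were sought over the 9 arrays, as the smallest root mean square difference between signals centred on their own mean. For Tnnc1 they were Apoc2, an apolipoprotein that activates lipoprotein lipase (difference 0.227), Rfx6, a transcription factor of gut and pancreas (0.355), and Nrk, a kinase (0.371). Apoc2 had day means of 6.29, 9.49 and 7.04. Of the other 9 listed genes Tnni1 stood nearest to Tnnc1, at rank 383 (1.064). The measure takes in the size of a change as well as its shape, and the day means of Tnnc1 span 3.21 where those of the other 9 span at most 1.53, so it does not compare the shapes of their courses. For Tnnt2 the nearest were Pxk (0.116), Gab2, a signalling adaptor (0.123), and Large2, a glycosyltransferase (0.128), with Tnni1 at rank 408. For Myl7 they were Qprt, an enzyme of NAD synthesis (0.193), Gnb4, a G protein subunit (0.205), and 2810025M15Rik (0.239), with Myl4 at rank 1298. The arrays of a day share their day, so this measure mostly compares 3 day means.

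**Figure D4:**
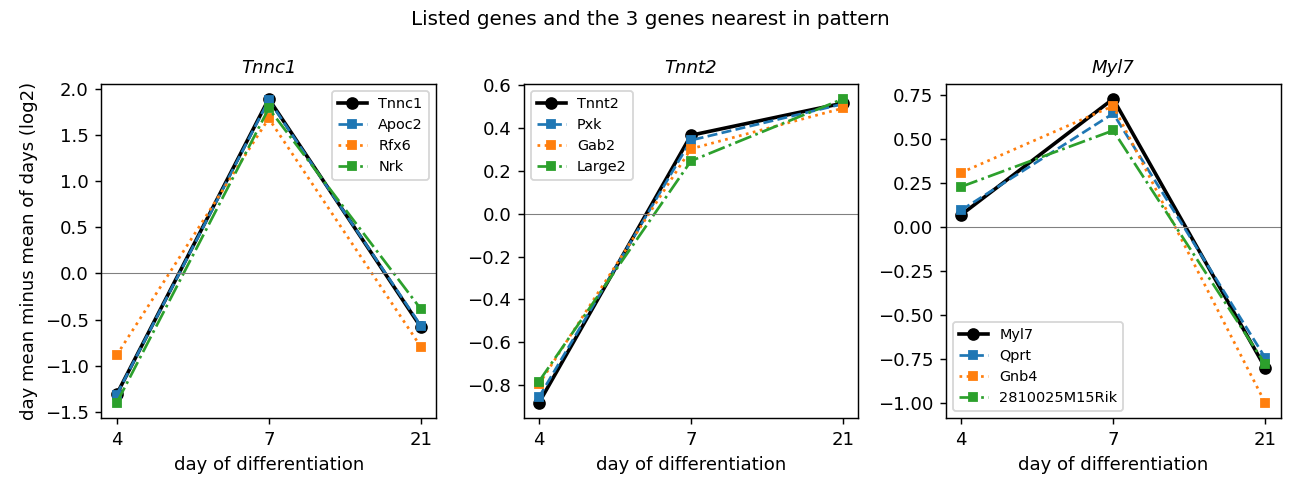
Day means of Tnnc1, Tnnt2 and Myl7 (black) and of the 3 genes nearest to each in course, each minus its own mean over days, in log2 units; the vertical scales differ between panels. Apoc2 follows Tnnc1 with a difference of 0.227 over the 9 arrays.

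The position of the genes was considered last, by the nearest protein-coding gene on each side in the RefSeq order, a step chosen after the values were seen. Tnni1 and Tnnt2 lie on chromosome 1 with a single protein-coding gene between them, Lad1, which encodes the basement membrane protein ladinin. Lad1 rose by 1.30 ± 0.14 to day 7 (limma adjusted p = 1.32e-04) and by a further 0.97 ± 0.14 to day 21 (5.82e-04), and Tnni1 and Tnnt2 were also called higher at day 7. The 10 genes have 16 measured neighbours that are not themselves listed. Of these, 2 were called higher at day 7 than at day 4 (Lad1 and Tnnt1), 3 lower, and 11 not called. Of all genes, 6.98% were called higher and 6.47% lower in that interval. The 3 lower neighbours were Dnaaf3 beside Tnni3 (-0.66 ± 0.12), Cdc27 beside Myl4 (-0.50 ± 0.13) and Aqr beside Actc1 (-0.39 ± 0.10). Actc1 itself rose. The outer neighbours Phlda3 (-0.13 ± 0.13) and Pkp1 (-0.17 ± 0.14) did not pass in that interval. Between days 7 and 21 they were called higher (0.86 ± 0.13 and 0.49 ± 0.14), as Lad1 was, while Tnni1 and Tnnt2 were not called. The neighbours of Tnnc1 on chromosome 14, Nisch (0.25 ± 0.09) and Sema3g (0.09 ± 0.12), did not pass between days 4 and 7, beside 3.21 for Tnnc1 itself. Tnni3 lies next to Tnnt1 on chromosome 7, where Tnnt1 rose to day 7 and Tnni3 was not called. Between days 7 and 21, 3 of the 16 neighbours were called higher and 3 lower, against 12.4% and 10.7% of all genes. Over days 4 to 21 the counts were 2 and 5, against 15.0% and 14.1%.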

How the data were processed

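Per the submitters' processing notes, the authors used Affymetrix Expression Console and RMA; the deposited numbers are on a log2 scale, 1 per probe set. Neither tool versions nor a genome build are named in the sources used here. The RMA method corrects background, equalises arrays and summarises probes, which largely removes any change that all transcripts share. There is no read depth on arrays, so precision rests on how many there are. Medians over 34365 probe sets lay between 5.88 and 5.98, and 0 pairs of arrays were identical. Probe sets with 1 gene symbol (23521; 1814 had several and 9030 none) gave 22180 genes, the brightest probe set standing for each. One fit over the 9 arrays, with a level for each day, used lmFit and eBayes of limma 3.58.1 (R 4.3.3) and Benjamini-Hochberg adjustment over all genes; it was tested on simulated data.

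The 10 genes, the lists and the background reference were chosen with earlier results of these data known. Of each list, up to 3 called genes in each direction, preset anchor genes and a few marked in the text are named. Alternatives were leaving out each array, a replicate block, fits on 2 days, another variance prior, scalings, the mean of probe sets, and leaving out dim genes.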

Additional observations from a re-analysis of the deposited data

How the results depend on the processing

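Over 16 alternative settings (15 for Myh6, which fell under the filter on dim genes), the 10 genes gave 477 values, of which 445 kept their side of the threshold, 20 lost a call, 12 gained one and 0 reversed a called direction. For 72 other named genes the counts were 3177, 197, 34 and 0 of 3408. The number of the 10 called with single arrays left out ranged from 3 to 5 between days 4 and 7, from 2 to 4 between days 7 and 21 and from 2 to 5 between days 4 and 21; the lowest counts were 2 without day 21 replicate 2 and 2 without day 4 replicate 3. Deviations of same-numbered arrays correlated at -0.054 to -0.001 between day 4 and the later days. Between days 7 and 21 they correlated at 0.078, 0.139 and 0.263, against -0.176 to 0.074 for different numbers, so there every array correlated best with its own number. That is a hint of pairing from the data, not from the design, and since 1 value was not over 0.1 the numbers were not taken as pairs. Olfactory receptor medians of replicates 1, 2 and 3 also ranked alike at day 7 (3.97, 3.88, 4.07) and day 21 (3.99, 3.87, 4.09). At day 4 they were 4.00, 4.03 and 4.00. Whether day 4 was processed apart from the later days is not in the labels and was not tested. With the replicate block the counts were 6, 4 and 4, beside 4, 4 and 4, since Myl7 (0.66) and Myh7 (0.63) were then called between days 4 and 7. The same 2 genes were called there with dim genes left out. Over all genes the calls with single arrays left out ranged from 2176 to 3285, from 4108 to 5048 and from 5423 to 6255, beside 2983, 5106 and 6448, and the block gave 2895, 5041 and 6413. No alternative moved the median change of all genes by over 0.1. For genes near the background reference a change in signal may understate or hide a change in RNA.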
